A study of Homo sapiens with 9 samples.

Results

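The genes that switch cellular cholesterol supply on and off were followed in HaCaT cells. The group held 9 genes, taken by symbol from the 9 deposited tables: the transcription factor genes SREBF1 and SREBF2, the escort and retention genes SCAP, INSIG1 and INSIG2, the sterol carrier STARD4, the LDL receptor ligase MYLIP and the sterol exporters ABCA1 and ABCG1. Of the 16199 genes with an entry in at least 1 table, 8 belonged to the group, and 7 of these were among the 12394 genes that had enough counts to be tested. ABCG1 had no entry in any of the 9 tables used here.

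HaCaT is an immortalized human keratinocyte line, labelled WT, and all groups came from this single line. Untreated cells were kept in serum-free medium, EGF-treated cells received 10 nM epidermal growth factor (EGF), and bleogen pB1-treated cells received 1 µM bleogen pB1, a cactus-derived peptide described as an agonist of the EGF receptor, with 24 h of treatment given to post-confluent cells. Each group had 3 replicates, and the sources do not say whether these were separate cultures, so the p-values measure only the spread between these libraries. The comparisons asked which sterol genes each treatment moved and whether the treatments, which differed in molar dose, differed from each other.

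As background, SREBP proteins are made as membrane-bound precursors in the endoplasmic reticulum. When membrane sterols are low, SCAP escorts them to the Golgi, where proteases release the active factor, and when sterols are high the INSIG proteins hold SCAP back. SREBF2 chiefly serves cholesterol synthesis and LDL uptake, SREBF1 fatty acid synthesis, and the oxysterol receptors LXR drive export genes (ABCA1, ABCG1), MYLIP and one form of SREBF1. In keratinocytes, this pathway feeds the lipids of the skin barrier.

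The sequences just upstream of the start sites are shown for the 4 genes that fell with bleogen pB1 and for SREBF2, the paralog that did not pass the test, because SREBP and its partner NF-Y act on such regions. They were taken from RefSeq (GRCh38.p14), 250 bases before each start, and shortened where a GENCODE transcript begins further upstream. Capitals mark matches, on either strand, to the sterol regulatory element TCACNCCAC and to the NF-Y box CCAAT.
SREBF2 (chr22:41832855-41833104, plus strand): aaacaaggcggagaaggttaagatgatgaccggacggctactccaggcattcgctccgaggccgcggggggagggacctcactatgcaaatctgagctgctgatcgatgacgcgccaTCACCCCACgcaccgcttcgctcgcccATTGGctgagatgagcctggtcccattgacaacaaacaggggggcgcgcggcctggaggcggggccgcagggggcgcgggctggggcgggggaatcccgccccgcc
INSIG1 (chr7:155297628-155297775, plus strand): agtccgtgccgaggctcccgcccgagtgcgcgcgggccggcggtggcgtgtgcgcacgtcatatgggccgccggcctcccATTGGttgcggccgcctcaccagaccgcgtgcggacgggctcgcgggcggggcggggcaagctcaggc
STARD4 (chr5:111512591-111512785, minus strand): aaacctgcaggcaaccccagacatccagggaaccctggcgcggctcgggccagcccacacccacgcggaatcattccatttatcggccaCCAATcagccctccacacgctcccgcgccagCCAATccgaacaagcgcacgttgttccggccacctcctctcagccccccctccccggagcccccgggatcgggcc
MYLIP (chr6:16128836-16129085, plus strand): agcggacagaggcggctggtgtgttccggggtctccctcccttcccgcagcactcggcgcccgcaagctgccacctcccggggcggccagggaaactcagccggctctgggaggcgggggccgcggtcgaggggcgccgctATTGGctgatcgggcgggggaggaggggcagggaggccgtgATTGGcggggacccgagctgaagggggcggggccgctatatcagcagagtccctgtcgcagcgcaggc
SREBF1 (chr17:17837003-17837236, minus strand): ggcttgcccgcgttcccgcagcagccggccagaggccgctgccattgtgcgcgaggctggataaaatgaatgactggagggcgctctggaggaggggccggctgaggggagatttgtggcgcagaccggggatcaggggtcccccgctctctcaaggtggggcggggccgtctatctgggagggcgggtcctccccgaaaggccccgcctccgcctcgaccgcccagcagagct

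Of the 8 genes with a RefSeq window, only SREBF2 had a match to the sterol regulatory element TCACNCCAC in these 250 bases. Its first base lay 133 bases before the RefSeq start, and 0.883% of the 35116 windows of this length had a match. The SREBF2 window also held an NF-Y box, 106 bases before that start. INSIG1 had 1 NF-Y box, 170 bases before the RefSeq start and 68 before the GENCODE start at which the printed stretch ends. STARD4 had 2, at 161 and 130 bases before the RefSeq start, or 106 and 75 before the GENCODE start, and MYLIP had 2, at 109 and 68 bases before either. An NF-Y box was found in 32.0% of all windows, so that its presence in 4 of 8 genes is a description of these windows and nothing more. The Sp1 box GGGCGG was found for all 8 genes and in 42.6% of all windows. A gene was counted when any of its RefSeq windows matched, so counts of genes and shares of windows are unlike units. All scans covered the whole 250 bases before the RefSeq start, so a match can lie in a stretch left out above. The E-box CACGTG was found in SCAP, in ABCA1 and, in such a stretch, in INSIG1 (6.34% of all windows). The exact letters of the nuclear receptor motif AGGTCA were found in none of the 8 (12.1% of all windows). Only the letters given were sought, so variants of a motif were not counted. Whether a window, that of ABCA1 included, holds a variant nuclear receptor or LXR site was not tested. The sterol regulatory element and the NF-Y box of SREBF2 did not overlap, and a match of letters is not a measured binding site.

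The libraries held between 20288417 and 21320994 expected counts, so that 3 counts corresponded to 0.141 to 0.148 CPM (counts scaled to library size, with TMM factors), a floor that covers counting error only. All 8 keratinocyte markers examined, KRT5 and KRT14 among them, had an FPKM (counts scaled for length and depth) of at least 1 in every library, with a sum of 5800 to 6368 in untreated, 4886 to 4997 in EGF-treated and 5714 to 6708 in bleogen pB1-treated cells. Of 12 markers of leukocytes, endothelium, fibroblasts, melanocytes, erythroid cells and liver, 10 had an entry, all below an FPKM of 1 in every library, and TYR and ALB had none. Their sums were 2.09 to 2.75, 0.57 to 0.81 and 1.18 to 2.04 in the same order.

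Per length, the most abundant transcripts of the group in untreated cells were SREBF1 at an FPKM of 218 ± 7.86 (SD, n = 3), INSIG1 at 173 ± 3.66 and SREBF2 at 117 ± 3.76. STARD4 followed at 22.2 ± 1.38, SCAP at 14.4 ± 0.558, MYLIP at 9.82 ± 0.293 and INSIG2 at 5.53 ± 0.280. In this group of libraries each gene lay above the next in all 3 libraries. In EGF-treated cells, INSIG1 (144 ± 14.3) and SREBF1 (123 ± 15.5) overlapped, and MYLIP (4.19 ± 0.384) lay below INSIG2 (6.997 ± 0.921) in the order. In bleogen pB1-treated cells, SREBF1 (118 ± 10.7), SREBF2 (103 ± 5.85) and INSIG1 (98.7 ± 6.14) overlapped with their neighbours in the order, as did SCAP (15.4 ± 0.652) and STARD4 (14.6 ± 0.937).

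**Figure D1:**
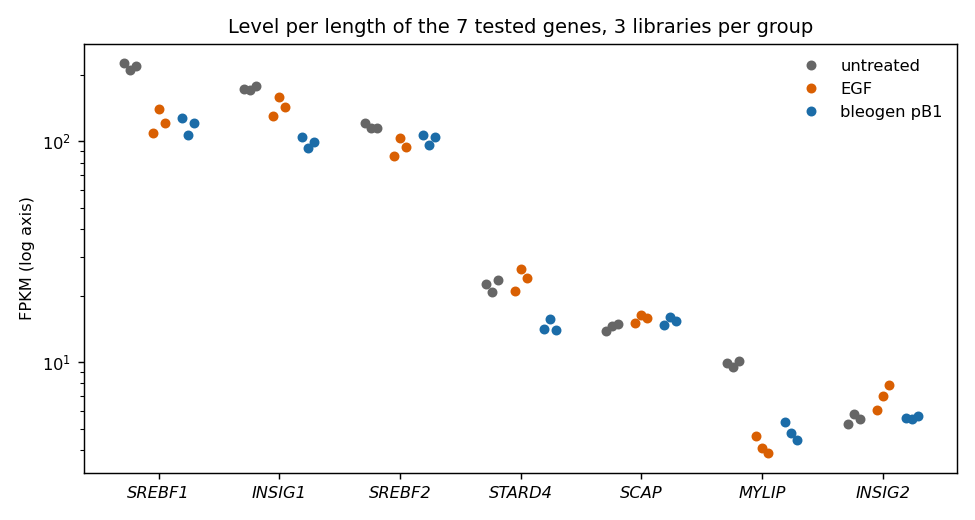
FPKM of the 7 tested genes (log axis) in each library, with 3 points per group for untreated, EGF-treated and bleogen pB1-treated cells, ordered by the level in untreated cells. SREBF1, INSIG1 and SREBF2 lie near or above 100 while the other 4 genes lie below 30, and SREBF1 and MYLIP are lower in both treated groups.

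With bleogen pB1, 4 of the 7 tested genes were downregulated: SREBF1, INSIG1, STARD4 and MYLIP. No tested gene of the group was upregulated by edgeR, DESeq2 or limma, and none was higher at an unadjusted p under 0.05. Among all 12394 tested genes this comparison called 1.48% as DEGs, 1.26% lower and 0.218% higher, where a DEG has an adjusted p (edgeR quasi-likelihood test, Benjamini-Hochberg) of at most 0.05 and a log2 fold change of at least 0.5 in size. That background count is sensitive to single libraries: it was 183 with all 9, 436 without bleogen pB1 replicate 1, 109 without replicate 2, 102 without replicate 3 and 102 without untreated replicate 1, whereas the same 4 genes were called in every one of these fits. With EGF, 2 of the 7, SREBF1 and MYLIP, were downregulated and none upregulated by edgeR, DESeq2 or limma (3 were higher at an unadjusted p under 0.05), against 36.9% of all tested genes, 21.8% lower and 15.1% higher, so that a share of 2 in 7 is near the background. In bulk RNA, fewer cells of a type and less RNA per cell cannot be told apart.

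**Figure D2:**
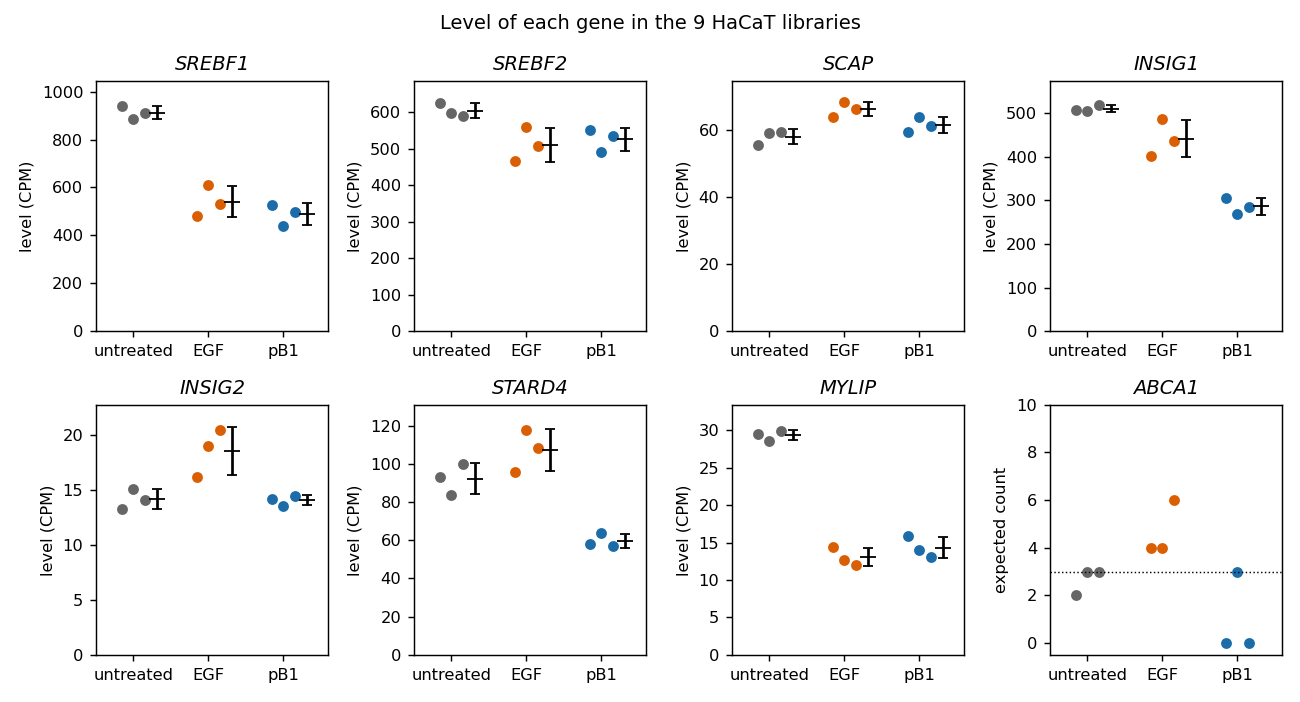
Level in each library, in CPM, for the 7 tested genes, and expected counts for ABCA1 with a dotted line at 3 counts; points are libraries, and bars are the mean and SD of 3. The untreated libraries lie above all treated libraries for SREBF1, SREBF2, INSIG1 and MYLIP, and the bleogen pB1 libraries lie below all others for INSIG1 and STARD4. Against untreated cells, SREBF2 was a DEG with neither treatment and INSIG1 was not one with EGF. The share of all tested genes that separate in this way is not given here.

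SREBF1 encodes the SREBP1 proteins, which drive fatty acid and triglyceride synthesis genes. Its level was 942, 885 and 909.6 CPM in the untreated libraries, 482, 610.1 and 529 CPM after EGF, and 528, 441 and 499 CPM after bleogen pB1. All 6 treated libraries lay below the 3 untreated ones, and the treated groups overlapped each other. With bleogen pB1 the log2 fold change was -0.90 (SE 0.09, adjusted p = 0.0002), a level that fell by 46.4%. The log2 fold change with EGF was -0.76 (SE 0.09, adjusted p = 7.8e-06). Between the treatments SREBF1 differed by 0.14 on the log2 scale, EGF minus bleogen pB1, with a 95% interval of -0.04 to 0.33 (adjusted p = 0.17).

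SREBF2 encodes SREBP2, the main activator of cholesterol synthesis genes. The untreated libraries had 626, 596 and 589.5 CPM, the EGF-treated ones 466, 558 and 507 CPM and the bleogen pB1-treated ones 551, 491 and 535 CPM. Again no treated library reached an untreated one, but the distance was smaller than for SREBF1. Its log2 fold change was -0.20 with bleogen pB1 (95% interval -0.35 to -0.05, adjusted p = 0.12) and -0.24 with EGF (95% interval -0.40 to -0.09, adjusted p = 0.0088), so neither met both limits. The treatments were -0.04 apart (95% interval -0.20 to 0.11), a difference whose sign turned when EGF replicate 1 was left out.

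The ratio of the paralogs within a library does not depend on how libraries are scaled. SREBF1 to SREBF2, in FPKM, was 1.86, 1.83 and 1.92 in untreated cells, 1.27, 1.35 and 1.29 with EGF and 1.19, 1.11 and 1.16 with bleogen pB1. The 3 groups did not overlap in this ratio. Each of its 3 comparisons gave a two-sided exact permutation p of 0.1, adjusted to 0.12 over the 6 ratio tests made, and 0.1 is the smallest p that 3 against 3 libraries allow. RAI1 on the other strand overlaps SREBF1 and SREBF2-AS1 overlaps SREBF2 in the GENCODE annotation, and whether the counting used strand is not given in the sources used here.

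SCAP, the sterol sensor that escorts SREBP precursors, had 55.4, 59.0 and 59.3 CPM in untreated cells. It had 63.8, 68.2 and 66.2 CPM with EGF and 59.3, 63.9 and 61.0 CPM with bleogen pB1. The EGF-treated libraries all lay above the untreated ones, by a log2 fold change of 0.19 (95% interval 0.06 to 0.32, adjusted p = 0.014), which is below the fold limit. For bleogen pB1 the log2 fold change was 0.08, with a 95% interval of -0.05 to 0.21 (adjusted p = 0.45).

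INSIG1 encodes the retention protein whose own gene is a textbook SREBP target. Its untreated libraries had 508, 505 and 519 CPM, the EGF-treated ones 402, 487 and 437 CPM, and the bleogen pB1-treated ones 307, 268 and 285 CPM. The 3 groups did not overlap, with bleogen pB1 lowest. The log2 fold change was -0.83 with bleogen pB1 (SE 0.07, adjusted p = 0.00015), and the level fell by 43.9%. With EGF it was -0.21 (95% interval -0.36 to -0.05, adjusted p = 0.023), below the fold limit. EGF-treated cells had more INSIG1 than bleogen pB1-treated cells, by a log2 fold change of 0.63 (SE 0.07, adjusted p = 1.4e-05).

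INSIG2, the paralog that is not regarded as a classical SREBP target, was scarce by comparison. It had 13.3, 15.1 and 14.1 CPM in untreated, 16.1, 18.9 and 20.4 CPM in EGF-treated and 14.1, 13.6 and 14.5 CPM in bleogen pB1-treated cells. All EGF-treated libraries lay above the others, with a log2 fold change of 0.39 against untreated (95% interval 0.16 to 0.61, adjusted p = 0.005) and of 0.40 against bleogen pB1 (95% interval 0.17 to 0.62, adjusted p = 0.0053), both under the fold limit of 0.5. Bleogen pB1 and untreated cells were -0.01 apart (95% interval -0.24 to 0.22, adjusted p = 0.97), a sign that turned without scaling factors and on FPKM.

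The ratio of INSIG1 to INSIG2, in FPKM, was 32.8, 29.3 and 32.1 without treatment, 21.6, 22.5 and 18.1 after EGF and 18.7, 16.8 and 17.2 after bleogen pB1. Both treated groups lay below the untreated group and overlapped each other. The exact permutation p was 0.1 for each treatment against untreated (adjusted 0.12) and 0.2 between treatments (adjusted 0.2), two-sided. With bleogen pB1 the lower ratio came with a lower INSIG1 level and with INSIG2 near its untreated level. With EGF, INSIG1 was lower and INSIG2 higher in all 3 libraries, each by less than the fold limit.

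**Figure D3:**
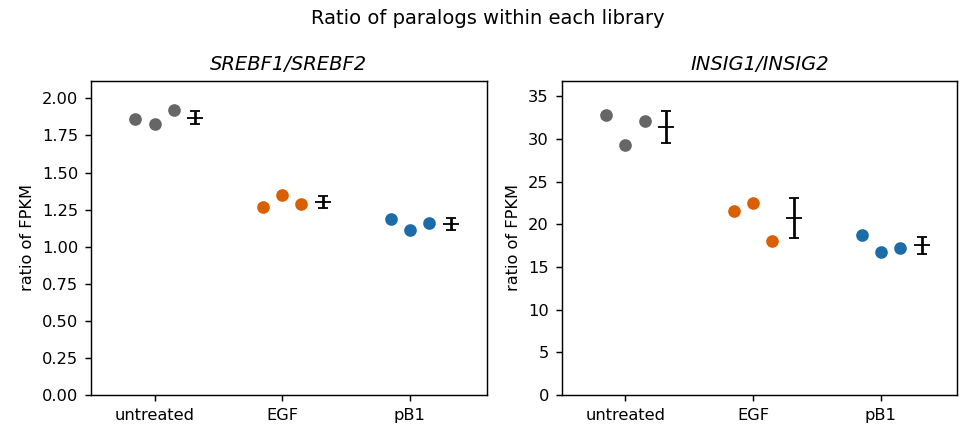
Ratio of SREBF1 to SREBF2 and of INSIG1 to INSIG2 in FPKM within each library, with the mean and SD of 3 libraries per group. In the order untreated, EGF, bleogen pB1, SREBF1 to SREBF2 was 1.87 ± 0.0435, 1.30 ± 0.0414 and 1.15 ± 0.0404, and INSIG1 to INSIG2 was 31.4 ± 1.88, 20.7 ± 2.35 and 17.6 ± 1.02.

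STARD4 carries cholesterol between membranes in the cytosol. Its level was 93.2, 83.9 and 99.8 CPM in untreated, 96.0, 118 and 108 CPM in EGF-treated and 58.0, 63.7 and 57.2 CPM in bleogen pB1-treated cells. All bleogen pB1 libraries lay below all others, while the EGF-treated and untreated libraries overlapped. The log2 fold change with bleogen pB1 was -0.63 (SE 0.09, adjusted p = 0.0014), a level that fell by 35.4%. With EGF it was 0.22 (95% interval 0.03 to 0.40, adjusted p = 0.036), below the fold limit. EGF exceeded bleogen pB1 by 0.85 (SE 0.09, adjusted p = 4.2e-06), the widest gap between the treatments among the 7 tested genes. The deposited transcript length of STARD4 varied between 4120 and 4465 bases among libraries, so its FPKM also reflects the estimated mix of transcripts, and STARD4-AS1 overlaps it on the other strand.

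MYLIP encodes IDOL, the ubiquitin ligase that sends the LDL receptor to degradation. It had 29.5, 28.6 and 29.9 CPM in untreated cells. After EGF it had 14.4, 12.7 and 12.04 CPM, and after bleogen pB1 15.9, 14.0 and 13.1 CPM. Both treatments thus left the level near one another, in overlapping ranges, and well below every untreated library. MYLIP had the largest log2 fold changes among the 7 tested genes in both comparisons, -1.03 with bleogen pB1 (SE 0.10, adjusted p = 0.00017) and -1.17 with EGF (SE 0.10, adjusted p = 5.6e-07). Its level fell by 51.2% with bleogen pB1 and fell by 55.5% with EGF. Between the treatments the difference was -0.13 (95% interval -0.35 to 0.09, adjusted p = 0.28).

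The sterol exporters were at the limit of detection. ABCA1, which loads cholesterol onto apolipoprotein A-I, had 2, 3 and 3 expected counts in untreated, 4, 4 and 6 in EGF-treated and 0, 3 and 0 in bleogen pB1-treated cells. All EGF-treated libraries lay above the others, by 1 count at the least. The gene did not pass the count filter and has no call. In the edgeR fit without that filter, over 16186 genes, its adjusted p was 0.41 for EGF and 0.54 for bleogen pB1 against untreated, and 0.063 between the treatments, and no fold change is given at such counts. A long noncoding RNA gene on the other strand overlaps ABCA1. For ABCG1, which passes cholesterol to high-density lipoprotein particles, the absence of an entry in tables whose lowest listed FPKM was 0.01 does not separate a lack of expression from a lower level.

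**Figure D4:**
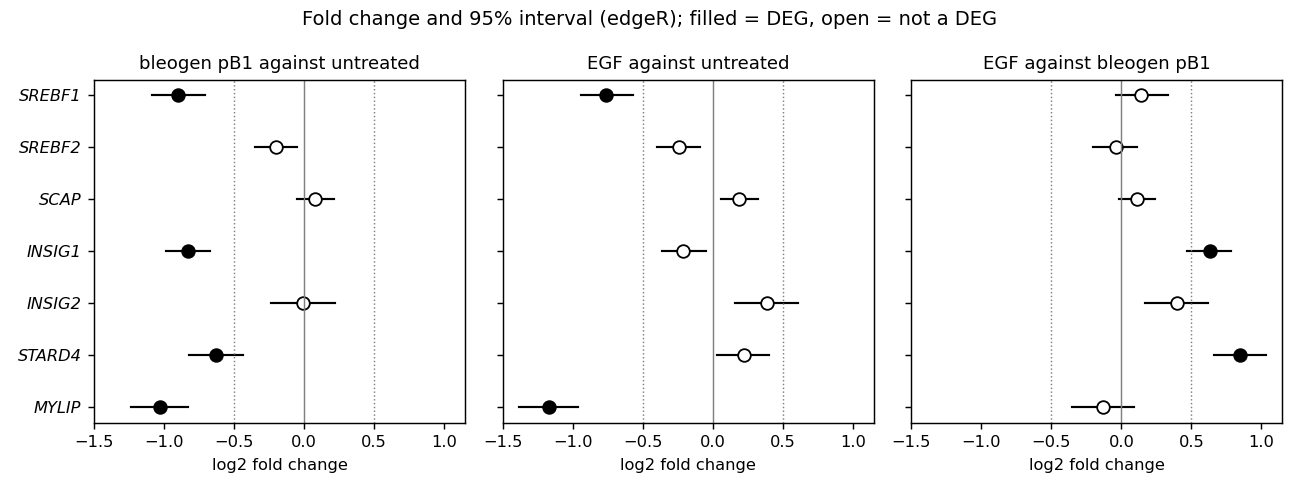
Log2 fold change with its 95% interval (edgeR) for the 7 tested genes in the 3 comparisons; filled points are DEGs, open points are not, and dotted lines mark the fold limit of 0.5. SREBF1 and MYLIP are filled on the lower side for both treatments, and INSIG1 and STARD4 only for bleogen pB1 and, on the higher side, for EGF against bleogen pB1.

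In the direct comparison, 2 of 7 genes (INSIG1 and STARD4) were higher with EGF and none lower, neither by edgeR, DESeq2 or limma nor at an unadjusted p under 0.05, against 28.8% of all tested genes called, 10.8% higher and 18.0% lower. Counted by adjusted p alone, all 7 tested genes passed in EGF against untreated, beside 66.1% of all tested genes. For 3 of them this did not hold in every alternative fit: the adjusted p was above 0.05 in 6 of 17 for SCAP (up to 0.22), in 4 for INSIG1 (up to 0.088) and in 9 for STARD4 (up to 0.38). By the same rule 4 of 7 passed in bleogen pB1 against untreated (background 4.11%) and 3 of 7 in the direct comparison (background 58.2%). All comparisons with untreated cells share the same 3 untreated libraries, so the values of the treatments are given side by side and are not independent of each other.

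Genes that act on SREBP activation and on sterol-regulated degradation, such as the site proteases MBTPS1 and MBTPS2 and the ligase RNF145, were examined as a list of 15, all tested. None was a DEG with bleogen pB1 by edgeR, DESeq2 or limma, 4 were higher and 0 lower at an unadjusted p under 0.05 (median log2 fold change 0.11, range -0.11 to 0.26, against a median of -0.001 over all tested genes). With EGF, 4 rose and 1 fell (median 0.19, against -0.013 over all tested genes), and the number called was 5 in all, 3 with upper-quartile factors and 2 on log2(FPKM + 1). The 5 of 15 are near the 36.9% called among all tested genes. UBE2G2, a ubiquitin-conjugating enzyme of the endoplasmic reticulum, went from 64.6 ± 1.45 to 99.5 ± 4.43 CPM (log2 fold change 0.62, adjusted p = 2.8e-06). UBE2J2 stood at the limit, with a log2 fold change of 0.50 just under it (adjusted p = 2.1e-05).

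Of 23 SREBP2 target enzymes and LDL uptake genes, 9 fell with bleogen pB1 and none rose, also by DESeq2 and limma or at an unadjusted p under 0.05, with 22 of 23 values below 0 and a median log2 fold change of -0.44, beside 1.26% of all tested genes called lower. MSMO1, a sterol C4 methyl oxidase, had 195, 203 and 195 CPM in untreated and 120, 117 and 113 CPM in bleogen pB1-treated cells (log2 fold change -0.76, adjusted p = 0.0002). The treated range did not touch the untreated one. With EGF, 3 genes of this list rose and 1 fell, with a median of 0.08, and these 4 of 23 are below the 36.9% called among all tested genes. HSD17B7, a 3-ketosteroid reductase of the same route, had a log2 fold change of 0.73 with EGF (adjusted p = 3.7e-06), and TMEM97, a sterol-responsive membrane protein, one of 0.62 (adjusted p = 7.4e-06). In the direct comparison, 15 of the 23 were higher with EGF (10.8% of all tested genes) and 1 lower (18.0%), with a median of 0.56 against -0.012 over all tested genes.

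Of 14 SREBP1 fatty acid target genes, 7 fell with bleogen pB1, beside 1.26% of all tested genes called lower, with a median of -0.49. The number lower was 7 by DESeq2, and 6 by limma on log2(FPKM + 1) or without scaling factors. None rose by edgeR, DESeq2 or limma, nor at an unadjusted p under 0.05. FASN, fatty acid synthase, went from 3545 ± 258 to 1399 ± 120 CPM with bleogen pB1 (log2 fold change -1.34, adjusted p = 0.0001), and LPIN1, a phosphatidate phosphatase, from 265 ± 18.1 to 155 ± 1.09 CPM (log2 fold change -0.77, adjusted p = 0.0001). EGF gave 4 lower and 1 higher in this list, with a median of -0.26, and 5 of 14 is near the 36.9% of all tested genes. FASN and LPIN1 were not among these, with log2 fold changes of -0.22 (adjusted p = 0.067) and 0.08 (adjusted p = 0.25). SCD, the stearoyl-CoA desaturase, fell with both treatments, from 13842 ± 559 CPM to 5537 ± 105 with EGF (log2 fold change -1.32, adjusted p = 3.6e-07) and 7503 ± 1344 with bleogen pB1 (-0.88, adjusted p = 0.00056). FADS1, a fatty acid desaturase, had -0.81 with EGF (adjusted p = 2.3e-07) and -0.48 with bleogen pB1 (adjusted p = 0.00084), the latter just under the fold limit.

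**Figure D5:**
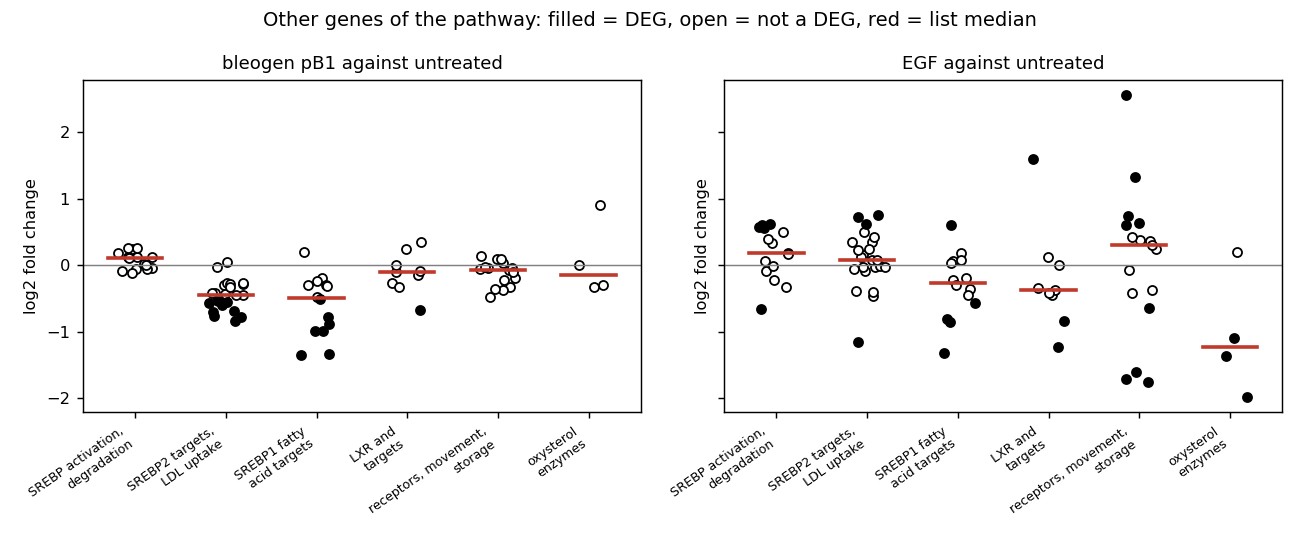
Log2 fold changes of the tested genes of 6 lists around the SREBP regulators, for bleogen pB1 and for EGF against untreated cells; each point is a gene, filled for DEGs, and the red line is the list median. With bleogen pB1 the medians of the SREBP2 and SREBP1 target lists were -0.44 and -0.49, while with EGF they were 0.08 and -0.26.

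Of 15 LXR receptors, RXR partners and other LXR targets, 11 had an entry and 9 were tested. With bleogen pB1, 1 of the 9 fell, beside 1.26% of all tested genes called lower, and the median was -0.10. This was LPCAT3, a phospholipid acyltransferase, with a log2 fold change of -0.67 (adjusted p = 0.00015). LPCAT3 had -0.37 with EGF (adjusted p = 0.0001), under the fold limit. Of the 9 genes, 2 fell and 1 rose with EGF (median -0.37), or 5 in all with upper-quartile factors. The 3 of 9 are near the background of 36.9%. The receptor gene NR1H3 fell by 1.23 on the log2 scale (adjusted p = 2.8e-05), and its partner RXRB fell by 0.84 (adjusted p = 9.7e-06).

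Lipoprotein receptors and genes of sterol movement and storage numbered 20, of which 17 were tested, and none was a DEG with bleogen pB1 by edgeR, DESeq2 or limma, with 4 lower at an unadjusted p under 0.05 (median -0.07). With EGF, 5 rose and 4 fell (median 0.31), 9 of 17 in all, beside 15.1% of all tested genes called higher and 21.8% lower. The number higher was 4 with upper-quartile factors, with at least 10 counts in every library and by limma on log2(FPKM + 1). Among the 5 was GRAMD1B, whose mean of 0.113 CPM in untreated cells lay below the floor of 3 counts. NCEH1, a cholesterol ester hydrolase, rose from 33.3 ± 3.06 to 83.1 ± 2.21 CPM (log2 fold change 1.32, adjusted p = 3.1e-07), and SOAT1, which esterifies cholesterol, from 52.3 ± 1.92 to 87.7 ± 6.64 CPM (0.74, adjusted p = 2.9e-06). STARD5, a relative of STARD4, had 19.1, 17.0 and 17.9 CPM in untreated and 5.65, 5.54 and 5.30 CPM in EGF-treated cells (log2 fold change -1.71, adjusted p = 3.1e-08). The oxysterol-binding OSBPL1A also fell (-1.60, adjusted p = 1.1e-07), as did the lysosomal lipase LIPA (-0.64, adjusted p = 2.2e-06). With bleogen pB1, LIPA had a log2 fold change of -0.47 (adjusted p = 0.0011), STARD5 one of -0.37 (adjusted p = 0.047) and OSBPL1A one of -0.19 (adjusted p = 0.3). None of these passed the fold limit. NPC1, which exports cholesterol from lysosomes, had log2 fold changes of 0.36 with EGF (adjusted p = 0.0014) and -0.32 with bleogen pB1 (adjusted p = 0.047), neither past the fold limit. Of 8 oxysterol and cholesterol sulfate enzymes, 4 were tested, with none called for bleogen pB1 by edgeR, DESeq2 or limma and 1 higher at an unadjusted p under 0.05 (median -0.14). With EGF, 3 of the 4 fell (median -1.23, beside 21.8% of all tested genes called lower), or 2 by limma on log2(FPKM + 1) and 1 when that fit was limited to genes that reached 1 FPKM in 3 or more libraries. Among the 3 was HSD3B7, a sterol dehydrogenase (log2 fold change -1.10, adjusted p = 0.00049). STS, the steroid sulfatase, had a log2 fold change of 0.20 with EGF (adjusted p = 0.13) and of 0.01 with bleogen pB1 (adjusted p = 0.96), the latter below 0 with upper-quartile factors.

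For the 4 downregulated genes of the group, the genes with the most similar profile were sought among 10868 genes, as the smallest root mean square difference of log2 CPM, centred on the untreated mean, over the 9 libraries. For STARD4 these were MSMO1 (difference 0.11) and CTH (0.12), and for MYLIP they were SCD (0.17) and FAM117A (0.18). For SREBF1 they were CD70 (0.14) and LBHD1 (0.15), and for INSIG1 C16orf54 (0.11) and LY6K (0.11). MSMO1 and SCD are also in the SREBP target lists above, and the other 6 genes are in none of the lists examined. Those lists were chosen with earlier results of these data known, and the share of the 10868 genes in them is not given here.

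In GENCODE release 44 (GRCh38), SREBF1 lies at chr17:17810399-17837002 on the minus strand, SREBF2 at chr22:41833105-41907306 on the plus strand and SCAP at chr3:47413681-47477126 on the minus strand. INSIG1 lies at chr7:155297776-155310235 (plus strand), INSIG2 at chr2:118088452-118110997 (plus strand) and STARD4 at chr5:111496033-111512590 (minus strand). MYLIP is at chr6:16129086-16148248 (plus strand), ABCA1 at chr9:104781006-104928155 (minus strand) and ABCG1 at chr21:42199689-42297244 (plus strand). The deposited values are sums over the transcripts of each gene, so that exons and isoforms are not separated.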

How the data were processed

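RNA from 9 HaCaT libraries, 3 per group, was analysed. The authors had polyadenylated RNA sequenced by BGI and mapped to GRCh38.p12, and the counting program and its use of strand are not given in the sources used here. The paper and the labels name different extraction kits and sequencing platforms. For each gene the authors deposited an expected count, an estimate left unscaled for depth, and an FPKM, which is scaled for length and depth. Genes without an entry in a table were counted as 0.

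Rounded expected counts entered edgeR 4.0.16 under R 4.3.3 (filterByExpr, TMM factors, quasi-likelihood test, all 9 libraries in 1 fit, 6 residual degrees of freedom, Benjamini-Hochberg adjustment over 12394 genes). A gene was a DEG at an adjusted p up to 0.05 and a |log2FC| from 0.5 upward, as in the study, which used DESeq2. The SE of a log2FC is its size over the root of its F statistic. Depth was 20288417 to 21320994 expected counts. The scripts were tested on simulated data. Sequences are from RefSeq and coordinates from GENCODE 44.

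The members and the gene lists were chosen with earlier results of these data known. Named genes were all 9 members, up to 2 genes with the smallest adjusted p per list and comparison with untreated among genes averaging at least 50 expected counts, and the 2 genes of most similar profile for each DEG among the members. NR1H3 and other list genes named beside these were chosen after their values were seen. Some genes chosen by the rule are not reported here singly, though they entered every fit and list count. The alternatives were DESeq2 1.42.0, edgeR on 6 libraries, other scaling factors, other count filters, limma 3.58.1 on log2(FPKM + 1) or log2(FPKM + 0.1), other DEG limits, leaving out single replicates and a replicate block.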

Additional observations from a re-analysis of the deposited data

How the results depend on the processing

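Each DEG call of a tested member kept its direction and its side of both limits in every fit made. Under all 17 alternative fits of each, SREBF1, INSIG1, STARD4 and MYLIP were called for bleogen pB1 and SREBF1 and MYLIP for EGF. INSIG1 and STARD4 were called in the direct comparison, also under all 17. The numbers of member DEGs were 4, 2 and 2, in the same order, with any 1 library left out. They changed with the DEG limits: at a log2FC of at least 1 in size they were 1, 1 and 0, and by adjusted p alone EGF called 7. Over all genes, DEGs by adjusted p alone numbered 509, 8187 and 7214, and at a log2FC of at least 1 in size 31, 1892 and 1458. With single libraries left out, DEGs numbered 102 to 436 for bleogen pB1, 4405 to 4737 for EGF and 3106 to 4041 in the direct comparison, and the cause was not tested.

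Among the members and the other genes named here, signs turned for differences near 0. INSIG2 with bleogen pB1 was 0.01 without scaling factors, 0.02 on each of the 3 FPKM scales, and -0.05 to 0.04 with single libraries left out. SREBF2 in the direct comparison was -0.10 to 0.02 with single libraries left out. LPIN1 with EGF and STS with bleogen pB1 were -0.02 and -0.01 with upper-quartile factors, and STS was -0.07 to 0.13 with single libraries left out. UBE2J2 with EGF passed the fold limit in some fits, and FADS1 with bleogen pB1 passed it without bleogen pB1 replicate 1, at -0.53. Over all tested genes, the EGF median on the log2 scale was -0.12 with upper-quartile and -0.01 with TMM factors, a shift of -0.10 (from unrounded medians). The correlation of deviations was -0.0304 to 0.207 between same-numbered libraries and -0.253 to 0.163 between different-numbered ones. These ranges overlap and do not settle whether the replicate numbers pair the libraries. With the replicate block, DEGs numbered 186, 4560 and 3550, and no call of a member changed. ABCA1 did not pass the count filter and ABCG1 had no entry, so neither has a call.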
